A study of Mus musculus with 17 samples.

Results

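The receptors for noradrenaline and adrenaline, dopamine, serotonin, acetylcholine and histamine were examined in purified cell types of the mouse cerebral cortex. The set held every gene whose symbol began with Adra or Adrb, Drd, Htr, Chrm, Chrna to Chrng, or Hrh followed by a subtype number or letter. It comprised 53 of the 22462 genes in the files, namely 9 adrenergic, 5 dopamine, 14 serotonin, 5 muscarinic, 16 nicotinic and 4 histamine receptor genes. The choice by symbol used no measured value. Of these genes, 29 reached 1 FPKM in at least 2 libraries and were tested, and 24 did not.

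Polyadenylated RNA was sequenced from 7 purified types with 2 libraries each and from whole cortex with 3 libraries. The types were astrocytes, neurons, microglia, endothelial cells and 3 stages of the oligodendrocyte lineage, which were oligodendrocyte precursor cells (precursor cells below), newly formed and myelinating oligodendrocytes. All 17 libraries came from cerebral cortex of mice labelled FVN/Swiss, with no treatment or engineered allele named. The labels used here give no age, sort marker or number of animals, and nothing says that a type's libraries were made from different animals. The spread behind each p-value is thus that of the libraries at hand and may be technical. Levels are FPKM as deposited by the authors, a read density per length of transcript and per size of library, and the lowest listed value is 0.1 FPKM, called the floor here. FPKM can be compared between genes, since it is per length. How deeply each library was sequenced is unknown, and with it the counting error of levels near the floor. Each of the 7 marker lists of the labelled types had its highest sum in its own type. The nearest neighbours were newly formed cells, where myelinating markers summed to 3746 and 4874 FPKM, against 8603 to 9864 FPKM in myelinating cells. The precursor libraries also held markers of other types. Microglia markers summed to 369 and 160 FPKM there, against 4504 and 5914 FPKM in microglia. Astrocyte markers summed to 328 and 135 FPKM there, against 1889 and 1376 FPKM in astrocytes. Neuron markers are given with Chrnb2 below, and the part of such cells in the precursor levels was not tested. In bulk libraries, fewer cells that carry a transcript and less of it per cell cannot be told apart.

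Most of these receptors are G protein-coupled. Gs-coupled members such as Adrb1 raise cyclic AMP through adenylyl cyclase, Gi-coupled members such as the alpha-2 adrenergic receptors lower it, and Gq-coupled members release calcium from internal stores. The nicotinic receptors and the serotonin receptors of the Htr3 group are instead cation channels built of 5 subunits, and the Chrna4 and Chrnb2 products together form the most abundant nicotinic channel of the brain. The transmitters reach the cortex mainly through long fibres from the brainstem, basal forebrain and hypothalamus, whereas the receptors are made by cells of the cortex itself.

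Receptor transcripts were scarce. The median receptor gene had 1.15 FPKM in its highest group, against 5.02 FPKM for the median of all genes. A group mean of at least 5 FPKM was reached by 9 of the 53 receptor genes (16.98%), against 50.05% of all genes. A mean of at least 10 FPKM was reached by 5 receptor genes, among them Adra2a, Adrb1, Chrna4 and Chrnb2, and a mean of at least 50 FPKM by 1. The leading receptor differed between types. Adra2a held 32.9% and 32.5% of the summed receptor FPKM in the astrocyte libraries, Chrnb2 15.6% and 17.3% in neurons, Chrna4 53.5% and 59.2% in precursor cells and Chrnb1 38.4% and 39.9% in endothelial cells. Of the purified types neurons carried the broadest repertoire, with 21 and 20 receptor genes at or above 1 FPKM in the 2 libraries. Precursor cells had 12 and 14, astrocytes 6 and 6, microglia 4 and 5, and newly formed cells 3 and 4. Endothelial cells had 3 and 3, and myelinating cells 1 and 3. Whole cortex had 24, 21 and 23. The types also differed over all genes, counted here at the floor and not at 1 FPKM. Of all genes, 34.1% and 34.2% were at the floor in neurons, 34.5% and 36.0% in precursor cells and 40.6% and 41.2% in microglia. In endothelial cells the share was 39.8% and 39.6%, and in myelinating cells 45.1% and 41.3%. Astrocytes had 37.7% and 36.6%, newly formed cells 39.6% and 40.4% and whole cortex 31.0%, 31.3% and 30.8%. Receptor genes above the floor numbered 42 and 41 in neurons, 27 and 32 in precursor cells and 20 and 25 in astrocytes. They numbered 21 and 21 in newly formed cells, 13 and 15 in microglia, 14 and 10 in endothelial and 10 and 25 in myelinating cells. Whole cortex had 41, 38 and 40.

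**Figure D1:**
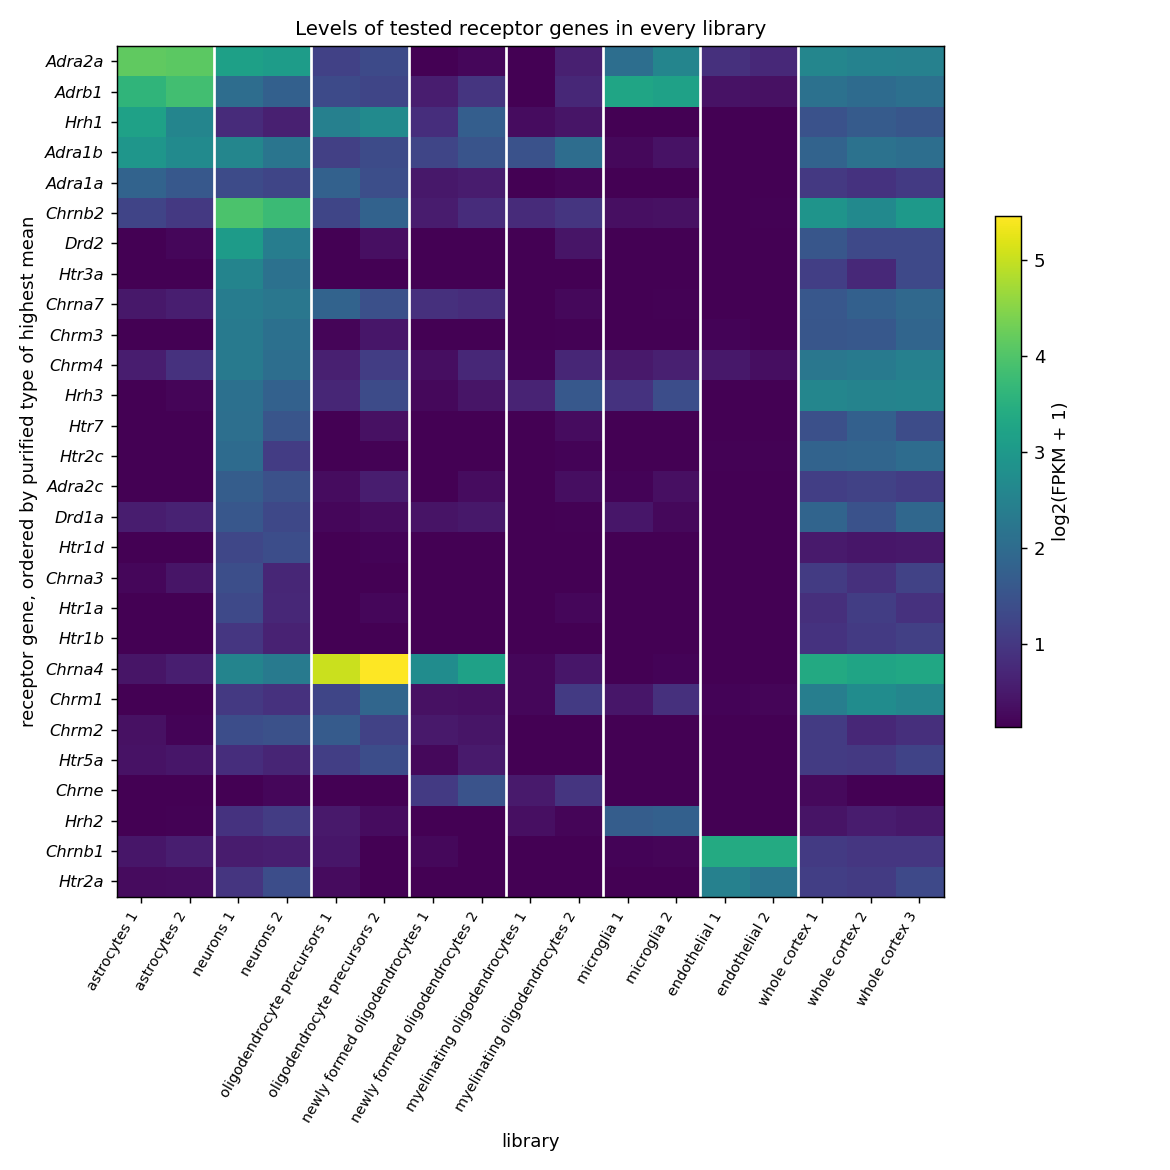
Level of tested receptor genes (rows) in each of the 17 libraries (columns), as log2(FPKM + 1) in colour, with white lines between groups. Rows are ordered by the purified type of highest mean, so the 15 genes highest in neurons form the long middle block, and the brightest cells are Chrna4 in precursor cells.

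Differences between types were asked for with limma on log2(FPKM + 1), on which scale all log2 differences below are given. That scale understates the change of low genes. A receptor was called higher in a type when its smallest difference to the other 6 purified types was at least 1 and its adjusted p (limma, Benjamini-Hochberg over all 14011 genes tested) was under 0.05. By this rule 14 of the 29 tested receptors (48.3%) were higher in 1 type, where 25.3% of all genes tested were. Of the 29, 26 (89.7%) varied across the 7 types by at least 1 with an adjusted p under 0.05, and so did 92.7% of all genes tested. Neurons had 9 of the called receptors, endothelial cells 2, and astrocytes, precursor cells and microglia 1 each. Newly formed oligodendrocytes had 0, where 0.457% of all genes tested were called, and by limma 1 receptor, Chrne, which passed the filter through these libraries alone, was higher there at an unadjusted p under 0.05. Myelinating oligodendrocytes had 0, where 0.699% of all genes tested were called, and 0 at an unadjusted p under 0.05 by limma.

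Neurons were the type in which most receptors peaked. Of the 29 tested receptors 15 had their highest purified mean there. The like share over all genes was not computed, so that count is description only. By the rule 9 were called in neurons (31.0%, against 5.70% of all genes tested): Adra2c, Drd2, Htr1d, Htr2c, Htr3a, Htr7, Chrm3, Chrm4 and Chrnb2. Htr1d reached 1 FPKM in neuron libraries alone and so passed the filter through the type in which it was high, which limits its part in these counts. Among families these were 4 of 8 tested serotonin receptors, 2 of 4 muscarinic, 1 of 2 dopamine, 1 of 6 adrenergic and 1 of 6 nicotinic genes. No histamine receptor was called in neurons or in another type.

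In astrocytes 1 of the 29 tested receptors was called (3.45%, against 3.66% of all genes tested). It was Adra2a, which encodes a Gi-coupled noradrenaline receptor. Adra2a had 16.96 and 16.4 FPKM in the astrocyte libraries, 7.93 and 7.47 FPKM in neurons, 3.16 and 4.93 FPKM in microglia and 1.23 and 1.503 FPKM in precursor cells. Whole cortex had 4.98, 4.62 and 4.61 FPKM. Both astrocyte libraries were above every other library, and the remaining purified types lay under 1 FPKM. The astrocyte level exceeded the neuron level by 1.02 (SE 0.19, adjusted p = 0.00137), just past the limit of 1, and the call was lost without astrocyte replicate 1 (0.998, adjusted p = 0.0151) or neuron replicate 2 (0.98, adjusted p = 0.0117). With a pseudocount of 0.1 the difference was 1.10 with an adjusted p of 0.141.

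The other adrenergic receptors each had their own order of types. Adrb1, a Gs-coupled receptor for noradrenaline, had 11.4 and 13.5 FPKM in astrocytes, 8.63 and 8.03 FPKM in microglia, 3.14 and 2.42 FPKM in neurons and 1.52 and 1.38 FPKM in precursor cells, against 3.34, 3.01 and 3.32 FPKM in whole cortex. Astrocytes exceeded microglia by 0.52 (SE 0.19, adjusted p = 0.129), so these 2 top types were not separated by the rule, and microglia exceeded neurons by 1.31 (SE 0.19, adjusted p = 2.61e-05). Adra1b, a Gq-coupled receptor, had 6.63 and 5.45 FPKM in astrocytes and 5.02 and 3.64 FPKM in neurons. Those libraries did not overlap, but the difference of 0.41 (SE 0.20, adjusted p = 0.343) was below the limit. It was the highest receptor of myelinating oligodendrocytes at 1.81 and 3.14 FPKM, against 2.57, 3.45 and 3.18 FPKM in whole cortex. Adra1a, its Gq-coupled relative, had 2.55 and 2.02 FPKM in astrocytes, 2.47 and 1.65 FPKM in precursor cells and 1.54 and 1.37 FPKM in neurons, and was at the floor in every microglia and endothelial library. Its first 2 types overlapped, with a difference of 0.11 (SE 0.12). Adra2c, the second Gi-coupled member that was detected, was the neuronal one. It had 2.25 and 1.74 FPKM in neurons and at most 0.486 FPKM in any other purified library, against 1.18, 1.27 and 1.13 FPKM in whole cortex, a difference of 1.13 between neurons and precursor cells (SE 0.12, adjusted p = 2.85e-06).

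Microglia had 1 called receptor of the 29 tested (3.45%, against 7.03% of all genes tested). Adra1d, Adra2b and Adrb3 were not tested and reached at most 0.972, 0.177 and 0.142 FPKM in any library.

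**Figure D2:**
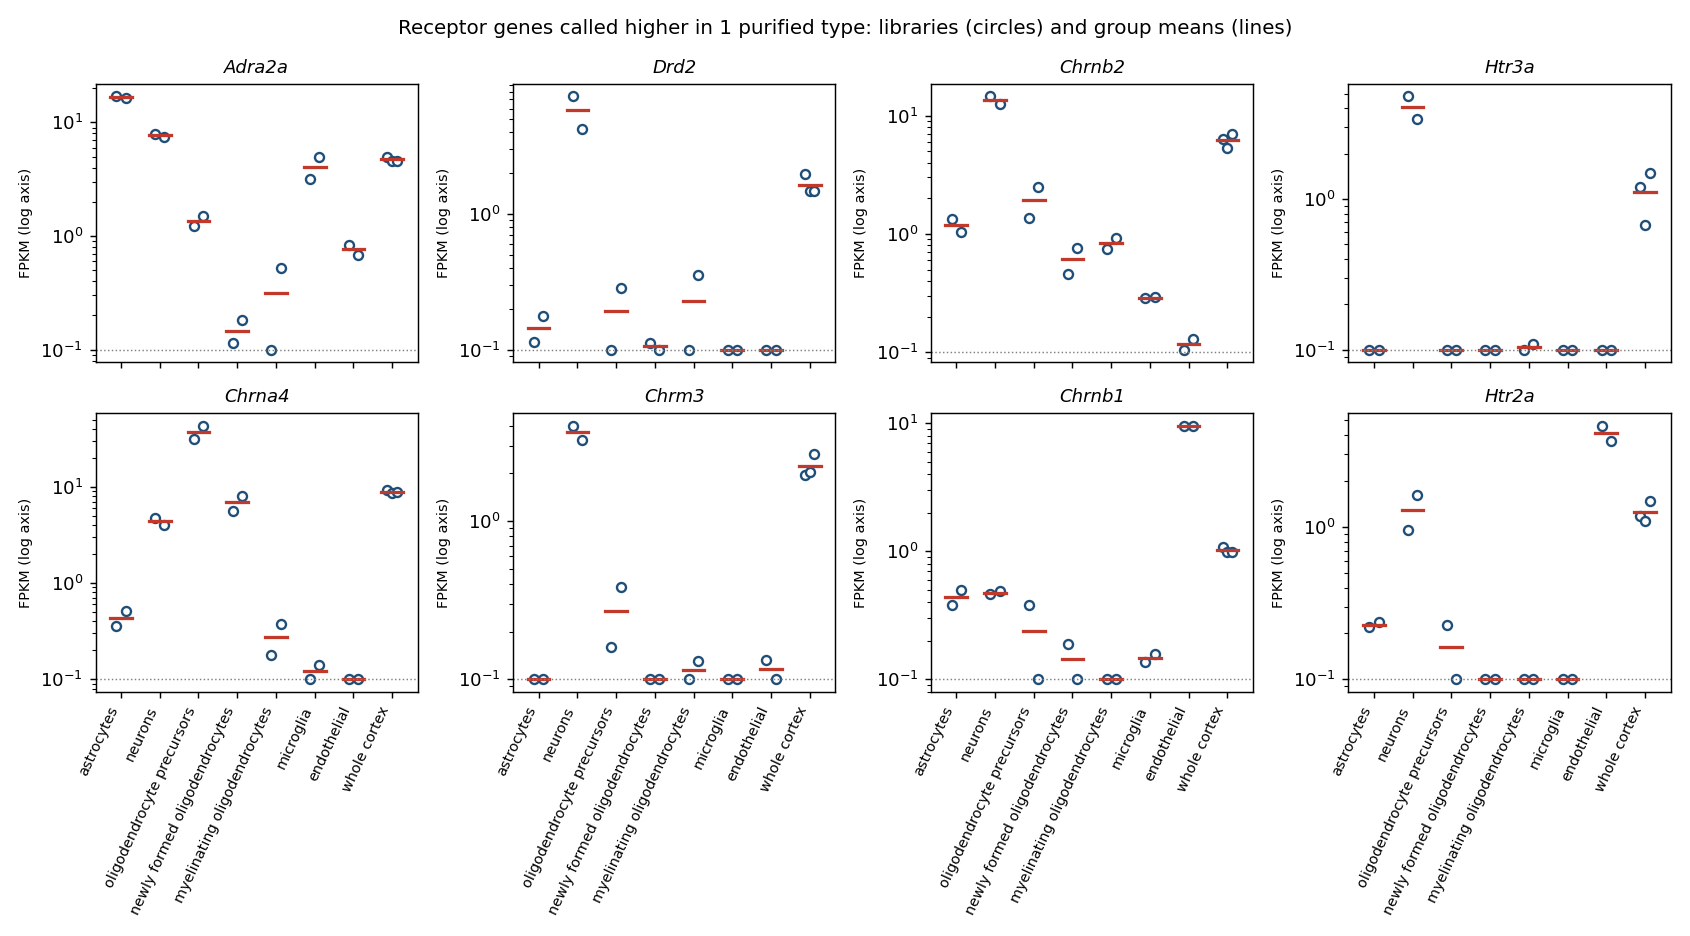
FPKM on a log axis for 8 receptor genes called higher in 1 purified type, with circles for libraries, red lines for group means and a dotted line at the floor of 0.1 FPKM. Adra2a peaks in astrocytes, Drd2, Chrnb2, Htr3a and Chrm3 in neurons, Chrna4 in precursor cells, and Chrnb1 and Htr2a in endothelial cells.

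Of the 5 dopamine receptor genes 2 were tested, and 1 was called, in neurons. This was Drd2, with Drd1a the other gene tested. Drd2, a Gi-coupled receptor and the main target of antipsychotic drugs, had 7.38 and 4.23 FPKM in neurons and at most 0.354 FPKM in any other purified library, against 1.97, 1.48 and 1.48 FPKM in whole cortex. The difference between neurons and the next type, myelinating oligodendrocytes, was 2.44 (SE 0.18, adjusted p = 6.99e-08). Drd1a, the Gs-coupled receptor now named Drd1, had 2.00 and 1.46 FPKM in neurons and 0.485 and 0.575 FPKM in astrocytes, against 2.597, 1.77 and 2.75 FPKM in whole cortex. Its neuron level exceeded the astrocyte level by 0.83 (adjusted p = 3.82e-04), short of the limit of 1. Drd3, Drd4 and Drd5 reached at most 0.663, 0.133 and 0.930 FPKM.

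Serotonin receptors gave the longest neuronal list. Htr3a, a subunit of the serotonin-gated channel, had 4.804 and 3.37 FPKM in neurons and at most 0.108 FPKM in any other purified library, against 1.19, 0.675 and 1.49 FPKM in whole cortex (neurons over the next type 2.19, SE 0.15, adjusted p = 4.68e-08). Htr7, a Gs-coupled receptor, had 3.25 and 1.91 FPKM in neurons and at most 0.292 FPKM in any other purified library, against 1.70, 2.43 and 1.60 FPKM in whole cortex (1.56, SE 0.16, adjusted p = 3.05e-06). Htr2c, a Gq-coupled receptor, had 2.98 and 1.10 FPKM in neurons and at most 0.140 FPKM elsewhere among the purified libraries, against 2.54, 2.69 and 3.04 FPKM in whole cortex. For all 3 genes both neuron libraries lay above every other purified library, while the neuron libraries themselves differed most for Htr2c.

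The Htr2c difference was 1.37 (SE 0.19, adjusted p = 8.09e-05) and 0.91 without neuron replicate 1, which ends the call. The transcript is known to be very abundant in the choroid plexus. Its 2 endothelial libraries stood at 0.126 and 0.118 FPKM. The choroid plexus marker list summed to 28.7 and 41.9 FPKM there, against 0.861 to 2.14 FPKM in whole cortex. Most of that sum was Ttr, which exceeded whole cortex by 4.60 in endothelial cells. Clic6 exceeded it by 1.01, and the other listed markers, Kl and Folr1, were too low for the test. Htr1d, a Gi-coupled receptor, had 1.40 and 1.63 FPKM in neurons and at most 0.139 FPKM in any other purified library, against 0.443, 0.374 and 0.385 FPKM in whole cortex, and differed by 1.17 from the next type. It passed the filter on low values through the 2 neuron libraries alone, so it had to differ, its p is not given, and it drops out of the test when either is left out. Htr1a and Htr1b, also Gi-coupled, peaked in neurons at 1.07 ± 0.594 and 0.761 ± 0.288 FPKM (SD, n = 2 each), by 0.83 and 0.67 over the next type, short of the limit of 1.

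Htr2a, the Gq-coupled receptor through which serotonin contracts vessels and on which hallucinogens act, was called in endothelial cells. It had 4.61 and 3.66 FPKM there, 0.950 and 1.62 FPKM in neurons and 0.219 and 0.237 FPKM in astrocytes, against 1.18, 1.09 and 1.49 FPKM in whole cortex. Both endothelial libraries exceeded every other library, and the remaining purified types were at the floor except precursor replicate 1. The difference from neurons was 1.18 (SE 0.14, adjusted p = 7.29e-06), and 0.97 without neuron replicate 1, which ends the call. Markers of mural cells, the contractile cells of the vessel wall, summed to 237 and 278 FPKM in the endothelial libraries, against 113 to 141 FPKM in whole cortex, 67.2 and 71.98 FPKM in astrocytes and at most 18.5 FPKM in the other purified types. Of that list Abcc9, Acta2, Anpep, Kcnj8 and Rgs5 were highest in endothelial cells among the purified types. Notch3 and Pdgfrb were instead higher in astrocytes than in endothelial cells, by 2.70 and 0.70. The part of mural cells in the endothelial level of Htr2a was not tested. The ratio of Htr2a to Htr2c was 36.7 and 30.96 in endothelial cells and 0.319 and 1.46 in neurons, against 0.464, 0.407 and 0.489 in whole cortex. Htr5a, a Gi-coupled receptor, was highest in precursor cells at 1.20 and 1.64 FPKM, with 0.792 and 0.609 FPKM in neurons, against 1.10, 1.02 and 1.296 FPKM in whole cortex. The difference between these types was 0.50, below the limit. Htr1f, Htr2b, Htr3b, Htr4, Htr5b and Htr6 were not tested and stayed at or below 0.837 FPKM in every library.

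The muscarinic receptors fell into neuronal and mixed patterns. Chrm3, Gq-coupled, had 3.99 and 3.27 FPKM in neurons and at most 0.382 FPKM in any other purified library, against 1.96, 2.03 and 2.66 FPKM in whole cortex (1.87 over precursor cells, SE 0.12, adjusted p = 1.71e-08). Chrm4, Gi-coupled, had 3.97 and 3.17 FPKM in neurons, 0.527 and 1.15 FPKM in precursor cells and 0.479 and 0.862 FPKM in astrocytes, against 3.73, 3.97 and 4.51 FPKM in whole cortex (1.33 over precursor cells, SE 0.21, adjusted p = 1.89e-04). Both genes were thus clearly apart from every glial and vascular library. In the RefSeq annotation the Chrm4 gene overlaps Mdk, and the library kit named in the labels does not mark strand. Mdk had 14.2 FPKM in neurons and 66.4 FPKM in precursor cells, and the part of its reads in the Chrm4 level was not tested.

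Chrm2, Gi-coupled, was shared between neurons at 1.63 and 1.76 FPKM and precursor cells at 2.18 and 1.28 FPKM, against 1.08, 0.648 and 0.805 FPKM in whole cortex. The precursor libraries lay on either side of the neuron ones, and the difference was 0.00 (SE 0.14), with every myelinating, microglia and endothelial library at the floor. Chrm1, the Gq-coupled receptor that is abundant in cortical pyramidal cells, had 1.39 and 2.71 FPKM in precursor cells and 1.02 and 0.854 FPKM in neurons, against 4.30, 5.62 and 5.01 FPKM in whole cortex, and was at the floor in both astrocyte libraries. All 3 whole cortex libraries lay above every purified library. Chrm5 was not tested and reached at most 0.939 FPKM.

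Among the nicotinic genes the partner subunits Chrna4 and Chrnb2 were highest in different cells. Chrna4 had 31.6 and 43.1 FPKM in precursor cells, 5.65 and 8.12 FPKM in newly formed oligodendrocytes and 4.79 and 4.02 FPKM in neurons, against 9.29, 8.54 and 8.86 FPKM in whole cortex. Every other purified library lay at or under 0.507 FPKM. Both precursor libraries exceeded all others, and Chrna4 was the only receptor called in precursor cells (3.45% of 29, against 1.49% of all genes tested), by 2.28 over newly formed oligodendrocytes (SE 0.18, adjusted p = 2.42e-06). Newly formed oligodendrocytes exceeded neurons by 0.53 (SE 0.18), so these neighbours were not separated by the rule.

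Chrnb2 had 14.5 and 12.6 FPKM in neurons, 1.36 and 2.51 FPKM in precursor cells and 1.34 and 1.04 FPKM in astrocytes, against 6.39, 5.32 and 6.94 FPKM in whole cortex. Neurons exceeded precursor cells by 2.33 (SE 0.18, adjusted p = 1.86e-07), and both neuron libraries were above every other library. The Chrnb2 gene overlaps Adar in the RefSeq annotation, and Adar had 18.7 FPKM in neurons and 10.2 FPKM in precursor cells, so that reads from the overlap cannot be told apart. The ratio of Chrna4 to Chrnb2 was 0.3298 and 0.3198 in neurons, 23.2 and 17.1 in precursor cells and 12.2 and 10.7 in newly formed oligodendrocytes, against 1.46, 1.61 and 1.28 in whole cortex. Neuron markers summed to 73.9 and 70.6 FPKM in the precursor libraries, against 1013 and 1137 FPKM in neurons, and their part in the precursor level of Chrnb2 was not tested.

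**Figure D3:**
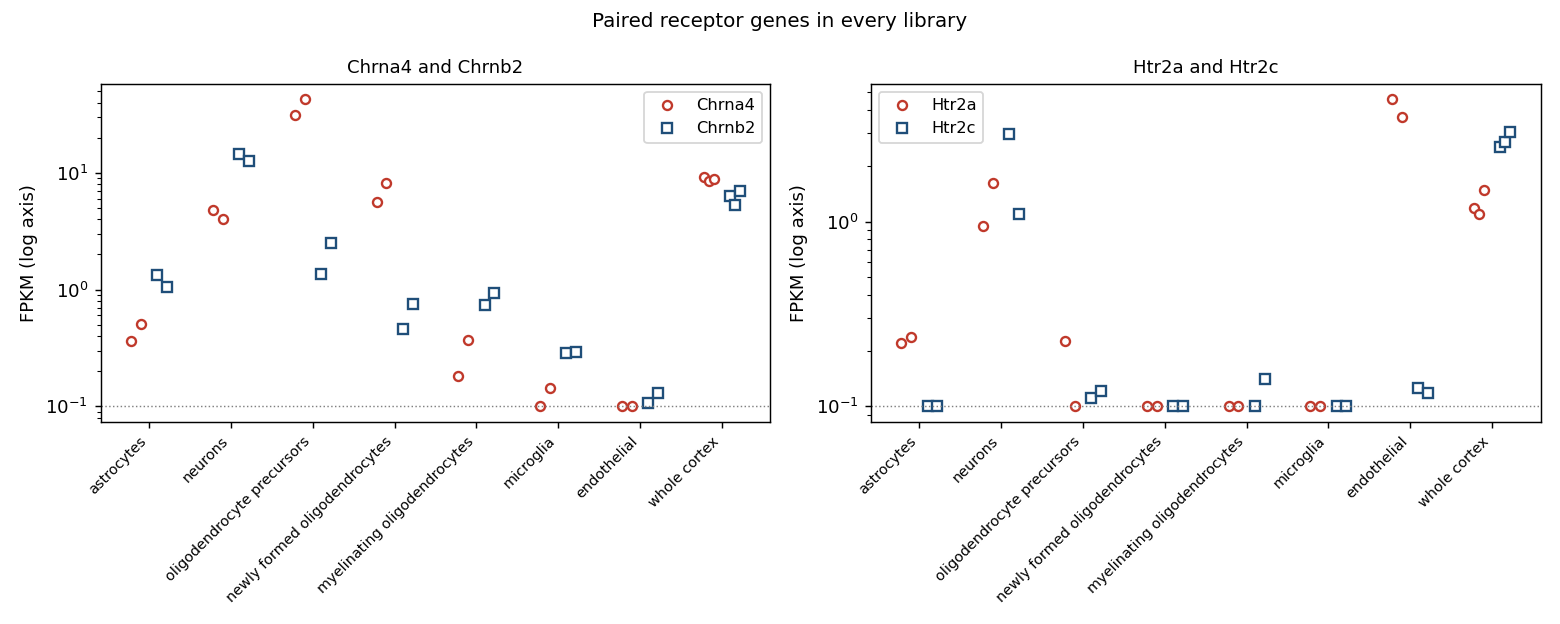
FPKM on log axes in every library for the nicotinic subunits Chrna4 (red circles) and Chrnb2 (blue squares), left, and for the Gq-coupled serotonin receptors Htr2a (red circles) and Htr2c (blue squares), right, with the floor of 0.1 FPKM dotted. Chrnb2 exceeds Chrna4 in neurons and the order is the other way in precursor and newly formed cells. Htr2a exceeds Htr2c in endothelial cells, Htr2c exceeds Htr2a in whole cortex, and the 2 neuron libraries differ in the order.

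The muscle-type subunit Chrnb1, known from the neuromuscular junction, was the other receptor called in endothelial cells, which makes 2 of 29 there (6.90%, against 6.29% of all genes tested). It had 9.46 and 9.51 FPKM in endothelial cells and at most 0.502 FPKM in any other purified library, against 1.07, 0.981 and 0.985 FPKM in whole cortex. Of the other libraries only whole cortex replicate 1 reached 1 FPKM, so Chrnb1 passed the filter through the type in which it was high. That limits its part in the count, and its p is not given. The libraries of endothelial cells stood apart from all others, with a difference of 2.83 from neurons (SE 0.11). The mural cell marker levels given for Htr2a stand beside this result too, and their part in it was not tested. The muscle subunits with which Chrnb1 assembles were hardly listed, since Chrna1 and Chrnd were at the floor in all 17 libraries and Chrng reached at most 0.3197 FPKM. Chrne, the subunit of the adult muscle receptor, had 1.05 and 1.84 FPKM in newly formed and 0.434 and 0.945 FPKM in myelinating oligodendrocytes, and at most 0.212 FPKM in any other library.

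The sequences just upstream of the genes for the split Chrna4 and Chrnb2 pair and for the endothelial Chrnb1 and Htr2a are shown for context, as the 250 bases before the start of each gene in RefSeq (build GRCm38.p6, whereas the FPKM were made on mm9). They are written in the direction of transcription, and capitals mark the GC box GGGCGG on either strand, so that CCGCCC is its reverse complement.
Chrna4, chr2:181039178-181039427, minus strand: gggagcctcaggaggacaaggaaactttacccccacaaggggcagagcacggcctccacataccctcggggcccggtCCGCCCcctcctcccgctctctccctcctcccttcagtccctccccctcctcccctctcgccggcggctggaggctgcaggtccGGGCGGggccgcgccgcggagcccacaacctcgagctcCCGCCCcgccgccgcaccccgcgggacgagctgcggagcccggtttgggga
Chrnb2, chr3:89764633-89764882, minus strand: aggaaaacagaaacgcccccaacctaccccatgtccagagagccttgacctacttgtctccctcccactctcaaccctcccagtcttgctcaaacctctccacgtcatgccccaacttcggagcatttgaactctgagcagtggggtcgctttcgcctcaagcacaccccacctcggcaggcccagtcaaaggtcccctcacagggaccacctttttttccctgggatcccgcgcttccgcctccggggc
Chrnb1, chr11:69795938-69796187, minus strand: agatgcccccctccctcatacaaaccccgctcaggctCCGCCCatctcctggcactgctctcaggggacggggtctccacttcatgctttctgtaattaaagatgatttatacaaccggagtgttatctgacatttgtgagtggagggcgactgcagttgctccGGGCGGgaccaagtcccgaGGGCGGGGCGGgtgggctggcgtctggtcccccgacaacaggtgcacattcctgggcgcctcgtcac
Htr2a, chr14:74640624-74640873, plus strand: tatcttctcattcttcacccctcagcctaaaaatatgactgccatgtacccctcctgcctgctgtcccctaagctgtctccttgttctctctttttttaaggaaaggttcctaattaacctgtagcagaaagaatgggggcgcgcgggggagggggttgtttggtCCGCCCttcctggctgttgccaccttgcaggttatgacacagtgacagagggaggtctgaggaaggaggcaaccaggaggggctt
The Chrna4 window has 24 CpG dinucleotides, 74.4% G and C and 3 GC boxes, and the Chrnb2 window 10 CpG dinucleotides, 59.6% G and C and no GC box. The Chrnb1 window has 14 CpG dinucleotides and 4 GC boxes, of which the last 2 overlap, and the Htr2a window 4 CpG dinucleotides and 1 GC box. The GC box occurs in 32.7% of 32817 windows of the same length, whose median is 6 CpG dinucleotides. The core GGAAGT bound by ETS factors occurs in 19.7% of windows and the core ACAAAG bound by SOX factors in 16.5%, and neither is found on either strand in these 4. These matches describe letters and not binding.

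The remaining neuronal nicotinic genes were low. Chrna7, which forms a channel of a single kind of subunit, had 4.15 and 3.73 FPKM in neurons, 2.57 and 1.71 FPKM in precursor cells and 0.838 and 0.765 FPKM in newly formed oligodendrocytes, against 1.99, 2.41 and 2.81 FPKM in whole cortex. Neurons exceeded precursor cells by 0.67 (adjusted p = 0.00259), short of the limit, in spite of libraries that did not overlap. Chrna3 had 1.66 and 0.638 FPKM in neurons and at most 0.363 FPKM in other purified libraries, against 1.10, 0.848 and 1.29 FPKM in whole cortex, with a difference of 0.72. Its gene overlaps Chrna5, which reached at most 0.637 FPKM. Chrna6, Chrna9 and Chrna10 were at the floor in every library, and Chrna2, Chrnb3 and Chrnb4 reached at most 0.206, 0.236 and 0.749 FPKM.

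Each of the 3 histamine receptors tested had a different leading type, and none passed the rule. Hrh1, Gq-coupled, had 8.04 and 4.87 FPKM in astrocytes, 4.49 and 5.46 FPKM in precursor cells, 0.780 and 2.29 FPKM in newly formed oligodendrocytes and 0.728 and 0.511 FPKM in neurons, against 1.79, 2.17 and 1.93 FPKM in whole cortex. The astrocyte and precursor libraries overlapped, with a difference of 0.29 (SE 0.24), and Hrh1 was at the floor in every microglia and endothelial library. Hrh2, Gs-coupled, had 2.27 and 2.43 FPKM in microglia and 0.893 and 1.11 FPKM in neurons, against 0.346, 0.450 and 0.399 FPKM in whole cortex. Of the other libraries only neuron replicate 2 reached 1 FPKM, so Hrh2 passed the filter through microglia and its p is not given. Microglia exceeded neurons by 0.74, below the limit of 1, and with a pseudocount of 0.1 Hrh2 was called.

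Hrh3, Gi-coupled and known as a brake on release from histamine nerve endings, had 3.28 and 2.48 FPKM in neurons, 0.635 and 1.57 FPKM in precursor cells and 0.591 and 2.04 FPKM in myelinating oligodendrocytes. Microglia had 0.878 and 1.64 FPKM and whole cortex 4.95, 4.71 and 4.81 FPKM. The spread between libraries was wide in these glial types, and neurons exceeded microglia by 0.79 (adjusted p = 0.0526). The higher myelinating library was replicate 2, in which neuron markers summed to 64.4 FPKM, against 20.02 FPKM in replicate 1, and their part in its Hrh3 level was not tested. Hrh4 reached at most 0.310 FPKM.

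By coupling, the called receptors were 5 of 10 tested Gi-coupled genes, 3 of 7 Gq-coupled and 2 of 5 Gs-coupled genes, beside 3 nicotinic subunits and Htr3a, where 25.3% of all genes tested were called in a type. Differences between classes were not tested. Of the 5 called Gi-coupled genes 4 were called in neurons, with Adra2a the exception. The 3 Gq-coupled genes were Chrm3 and Htr2c in neurons and Htr2a in endothelial cells, and the Gs-coupled ones included Htr7 in neurons.

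Along the oligodendrocyte lineage more receptors were called lower than higher, as was the case for all genes tested. From precursor to newly formed cells 6 of the 29 tested receptors fell (20.7%, against 18.4% of all genes tested) and 1 rose (3.45%, against 5.25%). Chrna4 fell most, to 6.89 ± 1.75 FPKM in newly formed cells, against 37.3 ± 8.09 FPKM in precursor cells (SD, n = 2 each, log2 difference -2.28, SE 0.18, adjusted p = 3.47e-07). Among the others Hrh1 differed by -1.30, Chrm1 by -1.21, Adra1a by -1.09 and Adra2a by -1.04, with adjusted p from 7.85e-06 to 7.94e-04 (limma). The 1 that rose was Chrne, by 1.13, which was at the floor in both precursor libraries. It reached 1 FPKM in the newly formed libraries alone and passed the filter through them, so its p is not given. Markers of other cells moved with these losses. Astrocyte markers summed to 16.8 and 23.9 FPKM in newly formed cells, against 135 and 328 FPKM in precursor cells, and neuron markers to 17.3 and 17.4 FPKM, against 70.6 and 73.9 FPKM. Microglia markers summed to 16.4 and 16.5 FPKM in newly formed cells, against 160 and 369 FPKM in precursor cells. Hrh1, Adra1a and Adra2a had their highest mean in astrocytes, and the part of these markers in the differences was not tested.

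Several of these smaller steps rested on 1 library. Without precursor replicate 1 the step was -0.89 for Adra1a, without precursor replicate 2 it was -0.96 for Adra2a and -0.90 for Chrm1, and without newly formed replicate 1 it was -0.86 for Hrh1, each under the limit. Chrne leaves the test when either newly formed library is left out. With libraries scaled by median of ratios, Adra1a and Adra2a were also under the limit, at -0.93 and -0.90.

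From newly formed to myelinating cells Chrna4 alone fell among the receptors (3.45%, against 19.9% of all genes tested), to 0.181 and 0.371 FPKM in the myelinating libraries, a log2 difference of -2.61 (SE 0.18, adjusted p = 2.50e-07). No receptor rose by the rule, where 2.13% of all genes tested did, and by limma 1 receptor, Hrh3, was higher at an unadjusted p under 0.05. Between the ends of the lineage 7 receptors were lower in myelinating than in precursor cells (24.1%, against 43.0% of all genes tested) and none higher, where 5.27% of all genes were. By limma 2 receptors, Adra1b and Chrne, were higher at an unadjusted p under 0.05. The 7 included Chrna4 at -4.90 (SE 0.18, adjusted p = 7.50e-11), Hrh1 at -2.19, Chrna7 at -1.44, Adra1a at -1.43, Chrm2 at -1.29 and Htr5a at -1.13. Chrm2 and Htr5a were at the floor in both myelinating libraries, so their differences depend on the listed floor. Htr5a was at -0.92 after scaling and -0.997 without precursor replicate 2, each under the limit.

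The median difference between myelinating and precursor cells was -0.16 over the 29 receptors, against -0.83 over all genes tested. Most receptors were low, and the scale understates the change of low genes. That bears on this comparison and on the shares called along the lineage. Median-of-ratios scaling moved the median of all genes by 0.53. After scaling, the rule called 2 receptors between myelinating and newly formed cells, of which 1 was higher and 1 lower, and 1 higher and 6 lower between myelinating and precursor cells.

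**Figure D4:**
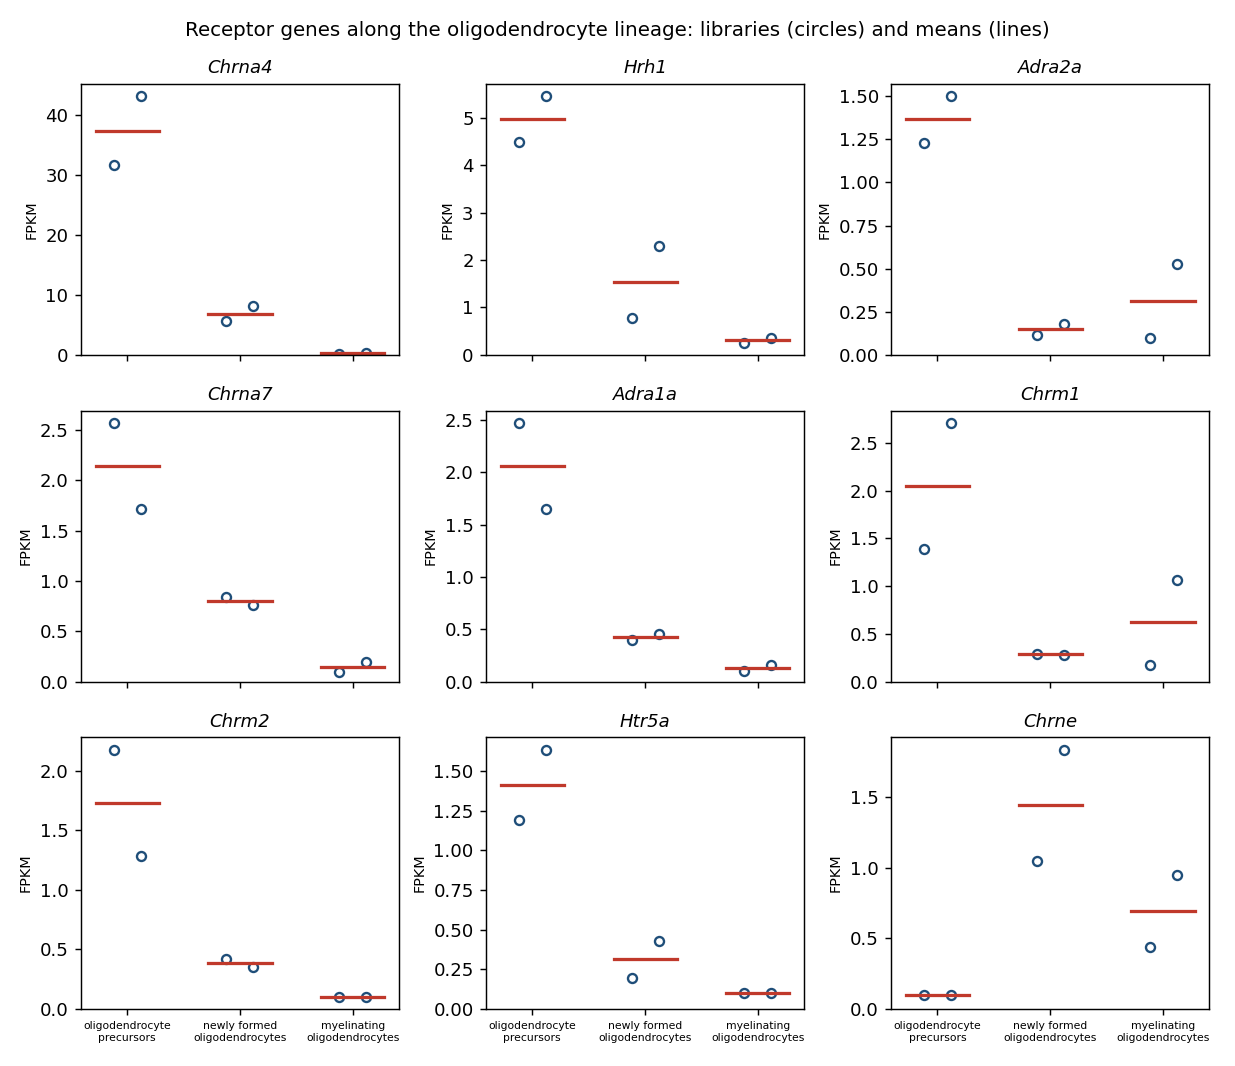
FPKM (linear axes from 0) of 9 receptor genes in the 2 libraries of each oligodendrocyte stage, with red lines for means. Chrna4 declines at both steps, Chrne is detected in the later stages, and the remaining genes are highest in precursor cells.

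How the purified types relate to the tissue was read against whole cortex. The median receptor differed from whole cortex by 0.01 in neurons, against -0.18 over all genes, by -0.79 in precursor cells, against 0.01, and by -0.90 in astrocytes, against -0.19. It differed by -0.91 in newly formed oligodendrocytes, against -0.35 over all genes, by -0.96 in microglia, against -0.73, by -1.11 in myelinating oligodendrocytes, against -0.90, and by -1.26 in endothelial cells, against -0.26. In neurons 3 receptors were higher than in whole cortex (10.3%, against 3.82% of all genes tested), namely Drd2 at 1.33 (SE 0.16), Htr3a at 1.27 (SE 0.14) and Chrnb2 at 1.01 (SE 0.17), and 2 were lower (6.90%, against 13.8%), among them Chrm1 at -1.62. The neuron libraries were rich in some neuron classes. Interneuron markers summed to 1685 and 1415 FPKM in neurons, against 175 to 244 FPKM in whole cortex, and Cajal-Retzius markers to 605 and 1430 FPKM, against 30.8 to 36.5 FPKM. Projection neuron markers summed to 83.4 and 66.4 FPKM in neurons, against 132 to 151 FPKM in whole cortex. Their part in the receptor differences was not tested.

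No receptor was lower in each purified type than in whole cortex by the rule, where 0.592% of all genes were, and none was higher, where 0.0285% were. By limma 5 receptors were lower at an unadjusted p under 0.05, namely Chrm1, Drd1a, Hrh3, Htr1b and Htr2c, and none was higher. Chrm1 came nearest. Its difference from whole cortex in its highest type, precursor cells, was -0.998 (SE 0.22, adjusted p = 0.0242), just short of the limit. For Chrm1 and Hrh3 all 3 whole cortex libraries exceeded every purified library.

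Genes around the receptors were read from lists of 25 enzymes and transporters, 20 G protein subunits and cyclases, and 14 kinases, arrestins and chaperones. Of 16 enzymes and transporters tested, 11 were called in a type, where 25.3% of all genes tested were. Among these, Th, Chat and Slc18a3 stayed under 1 FPKM outside neurons, and Dbh outside endothelial cells. They passed the filter through the type in which they were high, so they had to differ, which limits their part in this count. Ache, which breaks down acetylcholine, had 128 ± 7.31 FPKM in neurons, against 18.0 ± 1.57 FPKM in whole cortex. Chat, which makes acetylcholine, Slc18a3, which loads it, and Slc5a7, which takes up choline, were called in neurons. They had 2.07 ± 0.153, 5.97 ± 3.02 and 4.45 ± 1.73 FPKM there. Chat and Slc18a3 share a locus, so reads could be split between them. Maoa, an oxidase of monoamines, had 127 ± 4.32 FPKM in endothelial cells and 14.6 ± 0.543 FPKM in astrocytes, against 17.4 ± 1.45 FPKM in whole cortex, a difference of 3.04 between these types (SE 0.20, adjusted p = 1.04e-08). Its relative Maob was called in astrocytes at 8.35 ± 2.23 FPKM.

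Slc22a3, a low-affinity carrier of monoamines, was called in precursor cells at 4.15 ± 0.770 FPKM. Fibroblast markers summed to 68.0 and 119 FPKM in the precursor libraries and at most 7.38 FPKM in any other purified library, against 31.9 to 33.8 FPKM in whole cortex, and their part in the precursor calls was not tested. Th, the first enzyme of catecholamine synthesis, was called in neurons at 4.19 ± 0.428 FPKM. Dbh, which turns dopamine into noradrenaline, was listed at 3.46 ± 0.0538 FPKM in endothelial cells and at the floor in every other purified type, and Bche at 6.92 ± 1.34 FPKM. Slc6a2 and Slc18a1, carriers of noradrenaline and of monoamines, were at the floor in all 17 libraries, and Tph1, Tph2, Slc6a3 and Slc6a4 were too low for the test.

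Of 19 G protein and cyclase genes tested 9 were called, and of 13 kinases, arrestins and chaperones 7 were, where 25.3% of all genes tested were. In microglia the called genes were Adcy7 at 21.8 ± 4.49 FPKM, Gna15 at 99.2 ± 17.6 FPKM, the receptor kinase Adrbk1 at 107 ± 18.9 FPKM and the arrestin Arrb2 at 198 ± 11.3 FPKM. Gna15 exceeded the next type by 5.06 (SE 0.24, adjusted p = 4.53e-10) and Arrb2 by 2.87 (SE 0.18, adjusted p = 6.15e-09). In endothelial cells Adcy4 stood at 33.7 ± 0.303 FPKM (4.59, SE 0.14, adjusted p = 2.34e-12). In precursor cells, where Chrna4 led, Lypd6 and Lypd1, members of a family of nicotinic receptor modulators, were called at 22.99 ± 0.3201 and 41.2 ± 12.5 FPKM. Of the same family Ly6h was called in neurons, at 223 ± 24.9 FPKM with 70.7 ± 34.4 FPKM in precursor cells, and Lynx1, at 10.8 ± 5.49 FPKM in precursor cells, was not called in a type. Each value with an SD in these paragraphs is over n = 2 libraries, or n = 3 for whole cortex.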

How the data were processed

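Values were FPKM per gene and per isoform, made and deposited by the authors from polyA-selected, paired-end TruSeq libraries, per the labels. Per the submitters' processing notes Cufflinks 1.3.0, TopHat 1.3.3, Bowtie 0.12.7 and CASAVA were used, on build mm9. Values under 0.1 FPKM are listed as 0.1. The sum of FPKM was 205621 to 389838 per library, and 30.8% to 45.1% of genes were at the floor. Whole reads could not be recovered, since at most 7 genes shared a ratio window, against 5 after shuffling. Depth is therefore unknown, and no counting interval is given.

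Receptors were selected by symbol, with the lists of classes, pathways and markers taken from textbook knowledge. The members and lists were chosen with earlier results of these data known. Genes with at least 1 FPKM in at least 2 libraries (14011) were fitted on log2(FPKM + 1) by limma 3.58.1 (R 4.3.3). The model had 1 mean for each of 8 groups and a prior variance with trend, so that all groups share an estimate of the spread. A receptor was called in a type when the largest of 6 one-sided p-values, adjusted by Benjamini-Hochberg over all genes, was under 0.05 and the smallest log2 difference was at least 1. Whole cortex against the 7 types followed the same rule. Lineage steps, neighbours in an order and neurons against whole cortex used two-sided tests. The procedure was tested on simulated data.

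Of the 53 genes 29 entered the fit, and a few named by the rule are not reported here. Called genes and those with a group mean of at least 5 FPKM are given by library, the rest by range or highest value. Of the pathway lists, the 2 largest differences per list and the enzymes and transporters of the transmitters were eligible for naming. Adcy7, Lypd1 and Lypd6 were named after their values were seen. Ly6h and Lynx1 were also named outside that rule. Of the receptors 49 have 1 listed isoform, and the 4 with 2 were too low for a description by isoform. Promoters are from RefSeq (GRCm38.p6), and 40 of the 53 genes had one. In that annotation 22 receptors overlap another gene, and no coordinates of the FPKM features are given since the builds differ. Alternatives were median-of-ratios scaling, no filter, a filter at 5 FPKM, a pseudocount of 0.1, a replicate block, a limit of 2 and each library left out. Figures used pandas 2.3.3, numpy 2.4.6 and matplotlib 3.10.9 in Python 3.11.15.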

Additional observations from a re-analysis of the deposited data

How the results depend on the processing

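No direction turned under any alternative. The share of all genes called was not computed under the alternatives. The counts below thus describe the settings and do not set receptors against other genes. With a pseudocount of 0.1 FPKM the rule called 0 receptors in astrocytes, 2 in microglia, 13 between newly formed and precursor cells, 7 between myelinating and newly formed cells and 12 between myelinating and precursor cells. That setting called 18 receptors in a type, of which 13 were among the 14 of the main setting. Adra2a was lost, and Chrna3, Drd1a, Htr1a and Htr1b in neurons and Hrh2 in microglia were gained. With a filter at 5 FPKM fewer genes were tested, and 9 receptors varied across the types, with 1 called in neurons, 1 in endothelial cells and 3 between myelinating and precursor cells. With a limit of 2 on the log2 difference 13 varied, and 0 were called in astrocytes, 3 in neurons, 1 in endothelial cells, 1 between newly formed and precursor cells and 2 between myelinating and precursor cells. Median-of-ratios scaling called 1 receptor lower in every type than in whole cortex and 2 between myelinating and newly formed cells, and moved the median gene of a library by -0.32 to 0.42. Between myelinating and precursor cells it called 1 higher and 6 lower, where the main setting had 0 higher. The cause of these changes was not tested. No filter gave the same 14 receptors called in a type.

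With each library left out the counts ran from 24 to 27 for variation, 0 to 1 in astrocytes, 7 to 10 in neurons, 1 to 2 in endothelial cells and 0 to 1 for lower in every type than in whole cortex. They ran from 5 to 8 for newly formed against precursor cells, 1 to 2 for myelinating against newly formed cells and 6 to 10 for myelinating against precursor cells. A lone library left in a type is assumed to vary like the other groups. With the replicate number as a block, the same 14 receptors were called in a type and no call count changed. Across 28 pairs of groups the correlation of deviations of same-numbered libraries ran from -0.25 to 0.73, with a median of -0.02. It was over 0.1 in 7 pairs. The numbers were taken as names only, and whether some groups shared a preparation cannot be told from these values. The unknown depth limits most the receptors near 1 FPKM, for which a difference of 1 on this scale is close to the whole signal.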
